A study of Bos taurus with 16 samples.

Results

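The SLC38 genes encode sodium-coupled transporters of small neutral amino acids, and 6 of them, SLC38A1, SLC38A2, SLC38A3, SLC38A4, SLC38A5 and SLC38A7, were followed in the liver of finishing and growing Angus steers. Each of the 6 was taken where its probe set carried a single symbol in the array annotation, and all 6 were found, with 1 probe set each, among 18010 named genes and 26773 probe sets. The 8 finishing steers, castrated male cattle, were sampled at a final body weight of 576 kg and the 8 growing steers at 301 kg. All 16 had been weaned, allotted at random from a starting weight of 209 ± 29.4 kg and fed 1 by 1 on a cotton seed hull ration for a gain of 1.5 kg per day. The labels give no age, and because both phases gained at the same daily rate, the finishing steers were heavier and had been fed for longer, so these cannot be told apart here. Liver RNA from each steer was measured on 1 array, and values are log2 signals per probe set. Array medians lay between 5.57 and 5.64, and precision is limited by the 8 arrays a phase. A probe set's signal depends on its own probes, so levels of different genes are not ranked here.

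As background, liver cells take up alanine, glutamine and other neutral amino acids as substrates for glucose, urea and protein synthesis. SLC38A1, SLC38A2 and SLC38A4 carry out system A transport, the concentrating uptake of alanine and related amino acids, which is known to respond to insulin, glucagon and amino acid shortage. SLC38A3 and SLC38A5 carry out system N transport of glutamine, asparagine and histidine, which is coupled to proton counter-transport and can run in either direction. SLC38A7 sits in the lysosomal membrane and releases glutamine and asparagine from the lysosome.

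SLC38A3, the system N transporter, was the 1 member of 6 that passed the test, and it was higher in finishing steers. SLC38A2 and SLC38A4 of system A had higher means in finishing steers, SLC38A1 and SLC38A7 had lower means, and SLC38A5 was nearly equal, but none of these 5 differences passed. The test was limma's moderated test across all probe sets, with Benjamini-Hochberg adjustment and a threshold of 0.05. It called 2.34% of probe sets higher and 4.3% lower in finishing steers, 6.64% in all. Against that background, 1 of 6 members was higher and 0 of 6 were lower, and nothing about the family as a whole is read from so small a count. At an unadjusted p under 0.05, 4 of the 6 differed, 2 of them lower, against 5774 of all 26773 probe sets, 2885 of them lower. The median difference over the members was 0.14 on the log2 scale, against 0.025 over all probe sets.

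**Figure D1:**
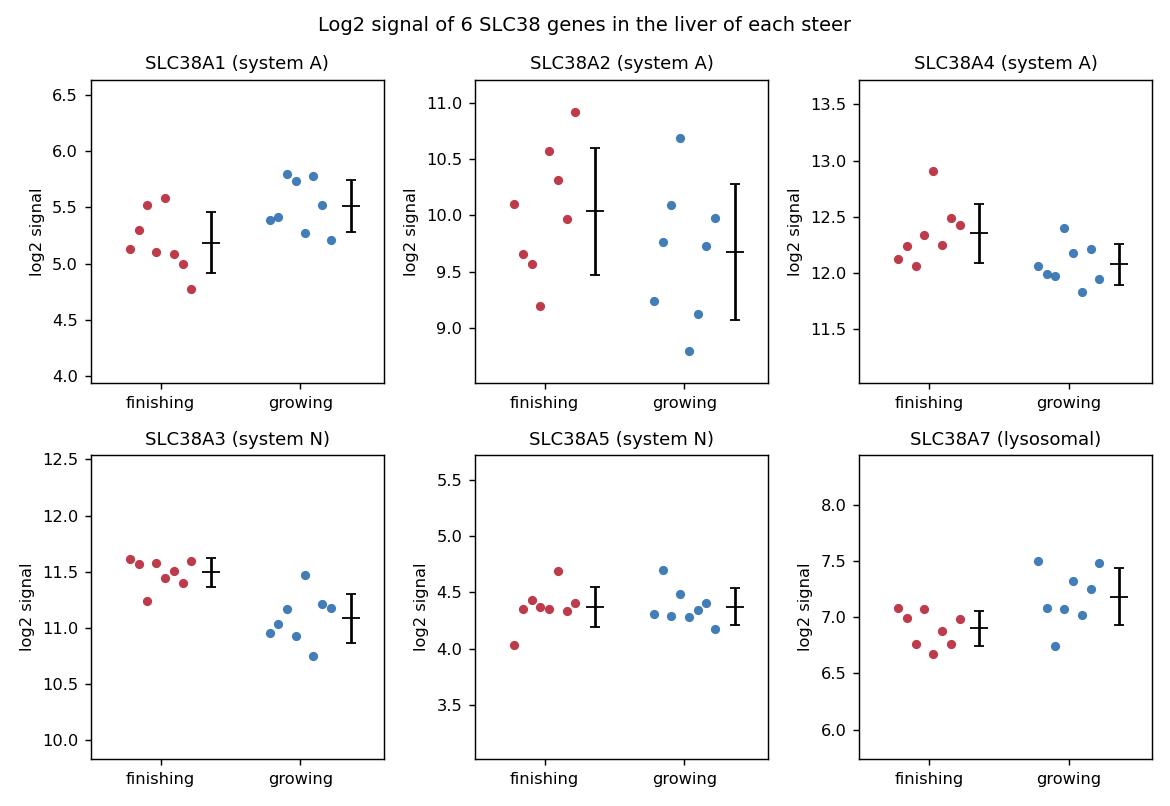
Log2 signal of the 6 SLC38 genes in the liver of each of 8 finishing (red) and 8 growing (blue) steers, 1 point per steer, with the mean ± SD in black; every panel spans the same log2 range around its own centre. The SLC38A3 points of finishing steers lie between 11.24 and 11.61, above all but 1 of the growing steers, while the SLC38A2 points are spread widely in both phases.

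SLC38A3 had a lowest, median and highest log2 signal of 11.24, 11.54 and 11.61 in finishing steers, against 10.75, 11.10 and 11.47 in growing steers. In 5 of 8 finishing steers it lay above every growing steer, and 7 of 8 growing steers lay below every finishing steer. Growing replicate 5, at 11.47, was the growing steer that reached the finishing range. The means were 11.49 ± 0.13 in finishing steers and 11.09 ± 0.22 in growing steers (SD, n = 8 each). The difference was 0.41 ± 0.09 (SE), or 1.33-fold, with a 95% interval from 0.22 to 0.60 on the log2 scale and a limma adjusted p of 0.0128. Leaving out any single array kept the call, with limma adjusted p from 0.00484 to 0.0267. Without finishing replicates 5 and 6, which resembled their group least (median correlations 0.978 and 0.981), the difference was 0.41 (limma adjusted p = 0.0368).

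SLC38A5, the second system N transporter, had log2 signals of 4.03, 4.36 and 4.69 (lowest, median and highest) in finishing steers, against 4.17, 4.32 and 4.70 in growing steers. The phases overlapped almost completely. Its difference was -0.0024 ± 0.09 (SE; limma adjusted p = 0.992), with a 95% interval from -0.18 to 0.18. Both phase means lay below the median probe set mean of 5.595, and the table has no detection calls, so whether this transcript was detected is unknown.

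Among the system A transporters, SLC38A4, a liver-enriched transporter that is imprinted in mouse, had log2 signals of 12.06, 12.29 and 12.91 in finishing steers, against 11.83, 12.03 and 12.40 in growing steers. Finishing replicate 5 was highest, 3 of 8 finishing steers exceeded the highest growing value, and the rest overlapped. The difference of 0.28 ± 0.11 (SE, 95% interval 0.05 to 0.51) did not pass (limma adjusted p = 0.142).

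SLC38A2, the hormone- and nutrient-responsive transporter of system A, had log2 signals of 9.20, 10.04 and 10.92 in finishing steers, against 8.79, 9.74 and 10.69 in growing steers. Animals of the same phase differed more than the phases did: finishing replicate 8 and growing replicate 4 were the highest of their groups, and finishing replicate 4 and growing replicate 5 the lowest. The within-phase SD was 0.59, larger than that of 97.1% of all probe sets, whose median was 0.19. With that spread the difference of 0.36 ± 0.27 (SE, limma adjusted p = 0.464) had a 95% interval from -0.20 to 0.92. That interval, from 8 arrays a phase, includes both no difference and the 0.41 seen in SLC38A3, so neither is shown. For the other 5 members the within-phase SD ran from 0.17 to 0.25.

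SLC38A1, a broadly expressed system A transporter, had log2 signals of 4.78, 5.12 and 5.58 in finishing steers, against 5.21, 5.47 and 5.79 in growing steers. Values of 5 finishing steers were under the lowest growing value, while finishing replicates 2, 3 and 5 lay within the growing range. The difference was -0.33 ± 0.12 (SE, 95% interval -0.58 to -0.08) and did not pass (limma adjusted p = 0.111). Both means were below the median probe set mean, and whether this transcript was detected is unknown.

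SLC38A7, the lysosomal glutamine exporter, had log2 signals of 6.68, 6.93 and 7.09 in finishing steers, against 6.742, 7.164 and 7.503 in growing steers. The ranges overlapped, with 4 of 8 growing steers above every finishing steer and growing replicate 3, at 6.74, the lowest of its phase. The difference was -0.28 ± 0.10 (SE, 95% interval -0.50 to -0.07; limma adjusted p = 0.114). Without growing replicate 3 it was -0.35 and passed (limma adjusted p = 0.0312).

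The tissue label was checked against cell type markers. Counts of called genes in this and the next paragraph stand beside 2.34% of all probe sets called higher and 4.3% called lower. Hepatocyte markers were bright, with ALB, the serum albumin gene, at 13.75 in both phases, and 0 of 12 passed the limma threshold (3 at an unadjusted p under 0.05, 1 higher and 2 lower). The highest value in the table is 14.115, so signals this bright may not register a change, and the markers show the tissue, not that its hepatocyte content was equal. With a variance trend and robust estimation 1 was called higher and 2 lower, with only probe sets above the median mean 1 higher and 1 lower, and with array weights or a lower-quartile filter 1 higher. Their mean log2 level ran from 12.89 to 12.96 in finishing steers, against 12.91 to 12.96 in growing steers. Markers of stellate cells and fibroblasts fell in 8 of 13 cases, and their mean level ran from 6.94 to 7.21 in finishing steers, against 7.46 to 7.70 in growing steers. Those of T and NK lymphocytes fell in 6 of 14, with mean levels from 5.572 to 6.005 in finishing steers, against 5.914 to 6.635 in growing steers. With arrays centred on the median of ribosomal protein genes, another scaling, 3 of these 14 fell. In a bulk sample, fewer cells of a type and less RNA per cell cannot be told apart, and the part of these cells in the lower means of SLC38A1, SLC38A7 and SLC38A9 was not tested.

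Kupffer cell and macrophage markers fell in 6 of 13 cases, but in 1 of 13 without finishing replicates 5 and 6 and in 2 to 9 when a single array was dropped, and their mean level ran from 8.36 to 9.48 in finishing steers, against 9.13 to 9.68 in growing steers. Centring on the array median left 3 of them and centring on ribosomal protein genes 2. Endothelial markers fell in 2 of 13, in 1 without finishing replicates 5 and 6, and in 0 with ribosomal centring. Cell cycle genes fell in 12 of 17, with mean levels from 4.95 to 5.29 in finishing steers, against 5.32 to 6.10 in growing steers, and 3 fell where only probe sets above the median mean were kept, a filter that leaves out the dimmer ones. Periportal markers, of the hepatocytes nearest the incoming blood, rose in 5 of 11, with mean levels from 9.77 to 10.41 in finishing steers, against 9.38 to 9.83 in growing steers. The pericentral markers rose in 1 and fell in 1 of 12. Their mean levels ran from 8.35 to 8.89 in finishing steers and 8.25 to 8.89 in growing steers. The rise was OAT, ornithine aminotransferase (limma adjusted p = 0.0579 without finishing replicates 5 and 6). The fall was LGR5, at -1.02 (limma adjusted p = 0.00444), and its call was kept in all 26 repeats under other settings. Among periportal markers SDS rose by 2.48 (limma adjusted p = 0.0013) and also kept its call in all 26 repeats. ASS1, at 0.22, lost its call without finishing replicates 5 and 6 (limma adjusted p = 0.139) and with ribosomal centring (limma adjusted p = 0.0811). It also lost it in 11 of 16 drops of a single array (limma adjusted p up to 0.0837). The part of zonal genes in the SLC38A3 rise was not tested. Cholangiocyte and erythroid markers had 0 of 7 and 0 of 8 past the limma threshold, with 1 and 0 at an unadjusted p under 0.05. Under filters on dim or unnamed probe sets, or without growing replicate 2 or finishing replicate 7, 1 cholangiocyte marker was called higher, and no marker is listed at 0.

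**Figure D2:**
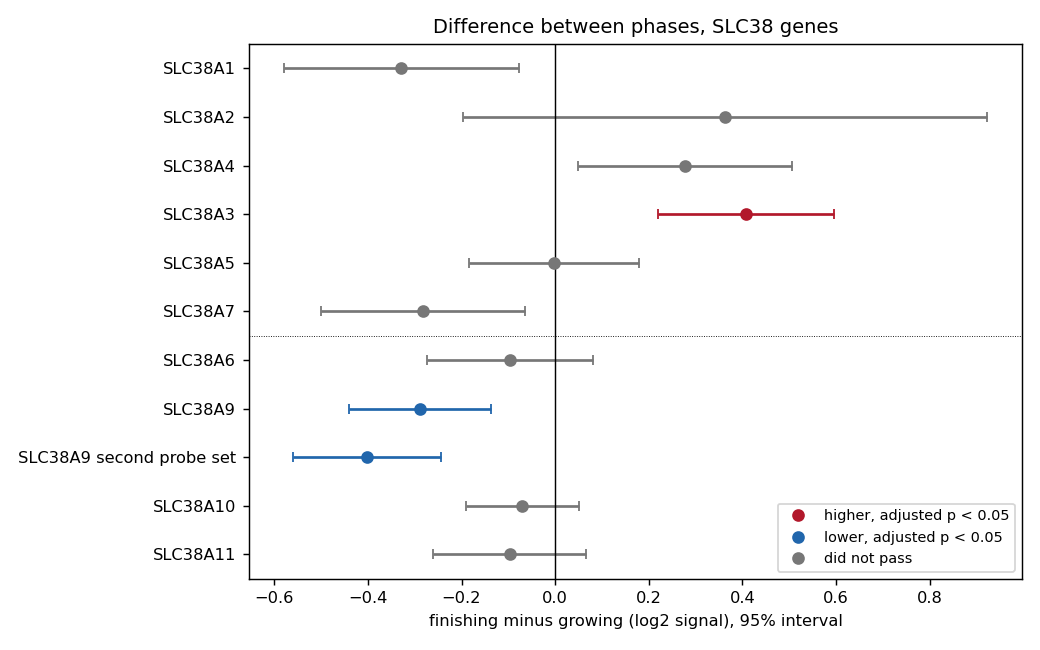
Difference in log2 signal, finishing minus growing, for the 6 followed SLC38 genes (above the dotted line) and for 4 other measured SLC38 genes in 5 probe sets (below it); points are limma estimates and bars 95% intervals. SLC38A3, at 0.41, is the 1 gene called higher, and both SLC38A9 probe sets, at -0.29 and -0.40, are called lower.

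A member that passed and another that did not are not thereby shown to differ, so the change of each member was set against that of every other. For each of the 15 pairs the difference of the 2 log2 signals within an array was compared between phases. The test was an exact permutation test, 2-sided, that went through all 12870 arrangements of the arrays, with p-values adjusted over the pairs. This comparison cancels any shift shared by a whole array. The test passed in 5 of 15 pairs, of which 4 set SLC38A3 or SLC38A4 against SLC38A7 or SLC38A1.

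SLC38A3 minus SLC38A7 averaged 4.59 ± 0.09 in finishing steers and 3.902 ± 0.298 in growing steers (SD, n = 8 each). The phases did not overlap, with 8 of 8 finishing steers higher, and the shift was 0.69 (exact permutation p = 0.000155, adjusted p = 0.00233). It had the smallest p of the 15 pairs, which is the lowest that 12870 arrangements can give in this 2-sided test. Of single probe sets 0.904% were separated in either direction, a share that was not computed for pairs. SLC38A3 minus SLC38A1 shifted by 0.74, with 6 finishing steers above the whole growing range (exact permutation adjusted p = 0.00932). SLC38A4 minus SLC38A1 shifted by 0.61 and SLC38A4 minus SLC38A7 by 0.56, with 7 and 4 finishing steers above the whole growing range (exact permutation adjusted p = 0.00932 for each). Both SLC38A1 means lay below the median probe set mean, and its detection is unknown, which limits the shifts against SLC38A1. Within system N, SLC38A3 minus SLC38A5 shifted by 0.41 (exact permutation adjusted p = 0.0317), which is the size of the SLC38A3 rise itself. Since it is unknown whether SLC38A5 was detected, that shift does not show that the 2 transcripts changed differently. Dropping single arrays ended the SLC38A3 minus SLC38A5 call for 8 of 16 arrays, namely finishing replicates 1, 2, 4 or 8 and growing replicates 1, 2, 4 or 6, with exact permutation adjusted p up to 0.0681. SLC38A3 and SLC38A4 differed by 0.13 in change (exact permutation adjusted p = 0.436), which does not show that they changed alike.

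**Figure D3:**
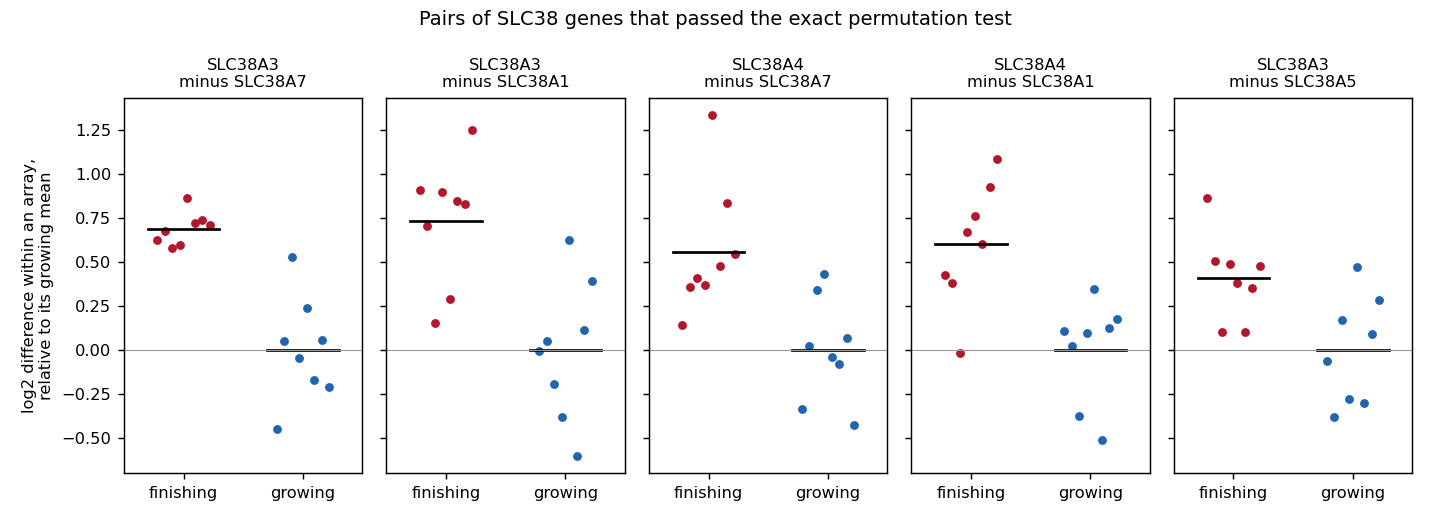
Within-array log2 difference between 2 SLC38 genes in each of 8 finishing (red) and 8 growing (blue) steers, drawn relative to its mean in growing steers, for the 5 of 15 pairs that passed the exact permutation test; black lines are phase means. In the first panel, SLC38A3 minus SLC38A7, the finishing steers average 0.69 above the growing mean and no point of one phase reaches the other.

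SLC38A4, SLC38A2 and SLC38A1 are consecutive protein-coding genes on the same chromosome in the RefSeq table of assembly ARS-UCD2.0, with 0 other protein-coding genes between SLC38A4 and SLC38A2 or between SLC38A2 and SLC38A1. Their differences between phases ran in both directions, at 0.28 for SLC38A4, 0.36 for SLC38A2 and -0.33 for SLC38A1. Of these neighbours, SLC38A4 minus SLC38A1 passed, with the limit on SLC38A1 given above. SLC38A2 minus SLC38A1 shifted by 0.69 without passing (exact permutation p = 0.043, adjusted p = 0.0964, or 0.04995 without finishing replicate 3). SLC38A2 minus SLC38A4 shifted by 0.09 (exact permutation adjusted p = 0.862).

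The members were also set against each other across steers. Over the 16 steers, after each phase mean was removed, 0 of 15 pairs passed a permutation test of the correlation with 100000 resamples and adjustment over the 15 pairs, and 2 passed at an unadjusted p under 0.05. The strongest relation was between SLC38A1 and SLC38A7, with Pearson's r of -0.674 (permutation p = 0.00414, adjusted p = 0.0621) and Spearman's rho of -0.626 (permutation p = 0.01115, adjusted p = 0.167). Without the 2 steers farthest from the median of SLC38A1 that r was -0.615, and it was -0.536 within finishing steers and -0.828 within growing steers. SLC38A1 and SLC38A3 had r = -0.532 (permutation p = 0.0337, adjusted p = 0.253) and rho = -0.409 (permutation p = 0.119, adjusted p = 0.576), and r = -0.461 without the 2 farthest steers. SLC38A2 and SLC38A4, both of system A, had r = 0.427 (permutation p = 0.0993, adjusted p = 0.497) and rho = 0.318 (permutation p = 0.228, adjusted p = 0.656), and r = 0.419 without the 2 farthest steers.

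The genes whose within-phase pattern was most like that of SLC38A3 were TMBIM1, a membrane protein with a BAX inhibitor motif, ANAPC1, a subunit of the anaphase-promoting complex, and NINJ1, a cell surface protein of plasma membrane rupture. Their Pearson's r over 16 arrays, among 9900 named genes ranked, was 0.802, 0.767 and 0.760, with Spearman's rho of 0.788, 0.706 and 0.565. Without the 2 steers farthest from the SLC38A3 median the r values were 0.747, 0.491 and 0.613. These are the highest of many values, so no p is given. None of the 3 passed between phases, with differences of 0.19, 0.037 and 0.19 and limma adjusted p = 0.121, 0.740 and 0.376.

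Of the rest of the family, SLC38A9, which senses arginine at the lysosome for the growth-controlling kinase complex mTORC1, fell in finishing steers at both of its probe sets. The brighter probe set had log2 signals of 7.24, 7.45 and 7.59 in finishing steers, against 7.48, 7.72 and 7.99 in growing steers, with 7 of 8 growing steers above every finishing steer. Its difference was -0.29 ± 0.07 (SE; limma adjusted p = 0.0227). The second SLC38A9 probe set had 6.28, 6.61 and 6.69 in finishing steers, against 6.81, 6.90 and 7.23 in growing steers, so the phases did not overlap. That probe set differed by -0.40 ± 0.08 (SE, limma adjusted p = 0.00547). Over all probe sets 0.904% showed no overlap between the phases, in either direction. The call of the brighter SLC38A9 probe set was lost without finishing replicates 5 and 6 (limma adjusted p = 0.0678) and with arrays centred on ribosomal protein genes (limma adjusted p = 0.0681), where the second probe set still passed (limma adjusted p = 0.0202 and 0.0234). SLC38A6, SLC38A10 and SLC38A11, whose transport roles are less settled, had differences of -0.097 ± 0.08, -0.071 ± 0.06 and -0.097 ± 0.08 (SE; limma adjusted p = 0.555, 0.519 and 0.513). SLC38A8 was not analysed here.

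Of 30 other amino acid transporters measured, 2 rose and 3 fell in finishing steers, with a median difference of 0.09 against 0.025 over all probe sets. Since 2.34% of all probe sets rose and 4.3% fell, nothing about the list as a whole is read from such small counts. Without finishing replicate 3, 4 of the 30 rose. SLC7A2, a carrier of arginine and lysine, averaged 10.91 ± 0.50 in finishing steers and 9.23 ± 0.52 in growing steers (SD, n = 8 each), a rise of 1.67 ± 0.23 (SE; limma adjusted p = 0.0012). SLC16A10, a carrier of aromatic amino acids, averaged 8.98 ± 0.66 in finishing steers and 7.60 ± 0.19 in growing steers, a rise of 1.38 ± 0.22 (limma adjusted p = 0.00249). In both genes 8 of 8 finishing steers exceeded the whole growing range. Over all probe sets 0.904% were fully separated, in either direction.

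The 3 transporters that fell were SLC7A7, an exchanger of cationic for neutral amino acids (-0.51 ± 0.13 SE, limma adjusted p = 0.0298), SLC36A1, a proton-coupled carrier of the lysosome (-0.35 ± 0.08, limma adjusted p = 0.0126), and SLC6A6, the taurine transporter (-0.30 ± 0.07, limma adjusted p = 0.0195). Without finishing replicates 5 and 6 only SLC36A1 of these still passed (limma adjusted p = 0.0493, against 0.066 for SLC7A7 and 0.0700 for SLC6A6). With arrays centred on ribosomal protein genes SLC36A1 and SLC6A6 did not pass (limma adjusted p = 0.052 and 0.084). Dropping any 1 of 6 arrays (finishing replicates 2 or 8, growing replicates 2, 4, 7 or 8) ended the SLC7A7 call, with limma adjusted p up to 0.0621.

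**Figure D4:**
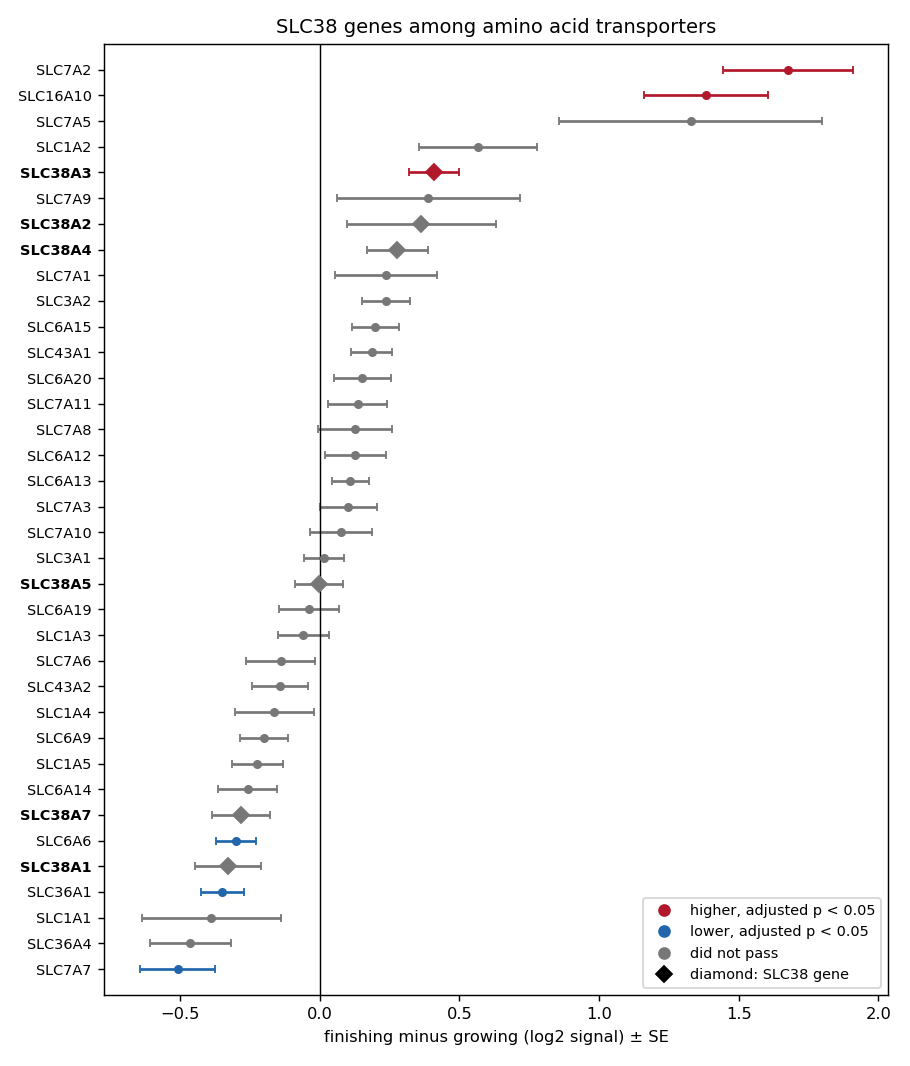
Difference in log2 signal, finishing minus growing, ± SE from limma for the 6 SLC38 genes (diamonds, bold names) and 30 other amino acid transporters (circles), ordered by size. SLC7A2 at 1.67 and SLC16A10 at 1.38 lie at the top, SLC38A3 at 0.41 is the third called rise, and SLC7A7, SLC36A1 and SLC6A6 are the called falls.

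Enzymes that use or make glutamine, glutamate, alanine and asparagine rose in 5 of 19 cases and fell in 1. The shares of all probe sets were 2.34% and 4.3%. The median difference was 0.19, against 0.025 over all probe sets. GLS2, the liver glutaminase, averaged 10.18 ± 0.29 in finishing steers and 9.18 ± 0.45 in growing steers (SD, n = 8 each), a rise of 0.997 ± 0.17 (SE; limma adjusted p = 0.00403). GOT1, the cytosolic aspartate aminotransferase, rose by 1.34 ± 0.24 (limma adjusted p = 0.0041) and ASPG, an asparaginase, by 0.47 ± 0.10 (limma adjusted p = 0.00876). For ASPG 8 of 8 finishing steers lay above the whole growing range, while 0.904% of all probe sets were fully separated in either direction. The other 2 that rose were GPT2, the mitochondrial alanine aminotransferase (0.58 ± 0.13), and OAT (1.93 ± 0.51, limma adjusted p = 0.0154 and 0.0306). OAT had an SD of 1.57 among finishing steers, and its call ended when finishing replicate 6, 7 or 8 or growing replicate 1, 2, 6 or 8 was dropped (limma adjusted p up to 0.0622). GLUD1, glutamate dehydrogenase, fell, with a difference of -0.45 ± 0.08 (limma adjusted p = 0.00316).

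Genes of the amino acid response, which the factor ATF4 switches on in amino acid shortage and to which SLC38A2 belongs as a known target, had 0 of 21 past the limma threshold in either direction. At an unadjusted p under 0.05, 7 were higher and 1 lower, with a median difference of 0.14. Among all 26773 probe sets 5774 differed at that level, 2885 of them lower, and 6.64% passed the limma threshold. The mean log2 level over the list ran from 6.84 to 7.07 in finishing steers, against 6.79 to 6.85 in growing steers, so the phases overlapped between 6.84 and 6.85. Without finishing replicate 3, 2 of the 21 were called higher, without growing replicate 4 1 was, and without growing replicate 3 1 was called higher and 1 lower. With array weights, with a variance trend, or with dim or unnamed probe sets left out, 1 was called higher.

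Genes of lysosomal amino acid sensing by mTORC1 had 1 of 31 higher and 2 lower, with a median of -0.03. Over all probe sets 2.34% were higher and 4.3% lower, so these counts are not read as a result about the list. The 2 that fell were SLC38A9 and SLC36A1, given above, and with ribosomal centring 0 of the 31 fell. LAMTOR1, a lysosomal anchor of the sensing complex, rose by 0.32 ± 0.09 (limma adjusted p = 0.0432). Dropping any 1 of 11 arrays ended that call, with limma adjusted p up to 0.0815, the arrays being finishing replicates 2, 3, 7 and 8 and all growing replicates other than 4. Centring arrays on their median also ended it (limma adjusted p = 0.053).

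Among genes of the hormonal control of system A transport, 4 of 18 fell and 0 rose, against 4.3% and 2.34% of all probe sets. At an unadjusted p under 0.05, 1 was higher and 5 were lower, against 5774 of all 26773 probe sets, 2885 of them lower. The median was -0.08, against 0.025 over all probe sets. GHR, the growth hormone receptor, differed by -0.38 ± 0.08 (limma adjusted p = 0.0128), NEDD4, a ubiquitin ligase of membrane proteins, by -0.33 ± 0.08 (limma adjusted p = 0.019) and NR3C1, the glucocorticoid receptor, by -0.36 ± 0.09 (limma adjusted p = 0.0268). The fourth was GCGR, the glucagon receptor, at -0.28 ± 0.07 (limma adjusted p = 0.0274). With arrays centred on ribosomal protein genes 1 of the 18 fell, and without growing replicate 7, 2 did. NR3C1 had a limma adjusted p of 0.091 without finishing replicates 5 and 6, and dropping finishing replicate 5 or 8 or growing replicate 1, 2 or 7 alone also ended its call (limma adjusted p up to 0.0554).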

How the data were processed

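Liver RNA of 16 steers was measured on 1 array each. Per the labels, Trizol-extracted RNA was turned into biotinylated cRNA by the Affymetrix protocol, and GCOS 1.2 and Partek 6.4 are listed, with no role, in the submitters' processing notes. The probe summary and normalisation are not given in the sources used here. From their range (1.48 to 14.1), the deposited values were read as log2 signals, and they were used unchanged. The labels describe oligo(dT)-primed labelling while the annotation is of a gene array, so every gene name rests on that annotation. Of 26773 probe sets, 18457 had 1 symbol, 688 several and 7628 none. Of several probe sets of a gene, the brightest on average stood for it.

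Differences are finishing minus growing from limma's lmFit and eBayes (version 3.58.1, R 4.3.3, 2-sided), adjusted by Benjamini-Hochberg over all probe sets. The fitting code was tested on simulated arrays with known differences. Permutation tests and correlations used scipy 1.17.1 and numpy 2.4.6. The members, lists, tests and alternatives were chosen with earlier results of these data known, and lists share some genes. Named genes are all SLC38 genes, up to 3 called genes per direction and list, and called or bright marker genes. The 3 genes most like a called member are named too, as are GPT2, OAT and GCGR, further called genes of the enzyme and hormone lists. Not every marker is printed. Phases share replicate numbers 1 to 8, but the steers differ and same-numbered deviations correlated between -0.153 and 0.041, so no block was used. No pair of arrays was identical.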

Additional observations from a re-analysis of the deposited data

Results flagged for a closer look

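In 20 groups of 8 log2 signals, from the 6 followed SLC38 genes and SLC38A6, SLC38A9, SLC38A10 and SLC38A11 in each phase, 2 held an array far from the other 7 by Dixon's gap criterion, which chance meets in about 1 of 20 groups. SLC38A6 was 5.05 in growing replicate 7, against 5.35 in the next lowest growing steer. SLC38A10 was 7.61 in growing replicate 4, against 7.43 in the next highest growing steer. Neither gene passed between phases, and no group of the 6 followed genes held such an array.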

How the results depend on the processing

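For the 6 SLC38 genes, 162 of 172 repeats under other settings kept the direction and the side of the threshold. The SLC38A3 difference stayed between 0.36 and 0.46 in all 29 of its repeats. It did not pass with a replicate block (0.41, limma adjusted p = 0.0548) or at a stricter adjusted p of 0.01 (0.41), and the members higher then numbered 0 in each case. The block is not part of the design, since 0 of 8 same-numbered pairs correlated above 0.1. SLC38A5 changed sign to 0.035 with ribosomal protein centring, which raises every difference by 0.037 because those genes averaged 9.69 in finishing and 9.73 in growing steers, and ran from -0.048 to 0.046 over the 16 fits that left out 1 array. SLC38A7 ran from -0.35 to -0.24 over those fits, so members lower ran from 0 to 1. Differences ran from -0.39 to -0.27 for SLC38A1, from 0.24 to 0.51 for SLC38A2, from 0.20 to 0.32 for SLC38A4 and from 0.36 to 0.46 for SLC38A3.

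Probe sets called numbered 626 higher and 1151 lower. They were 268 and 642 with the replicate block, 288 and 654 without finishing replicates 5 and 6, and 112 and 319 at an adjusted p of 0.01. Ribosomal centring gave 561 lower. Leaving out 1 array gave 410 to 881 higher and 858 to 1324 lower, with 410 and 415 higher without growing replicate 1 or 8. A stricter threshold makes fewer calls by construction; the cause of the other shifts was not tested.

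Of the 15 pairs of members, SLC38A3 minus SLC38A2 ran from -0.12 to 0.23, SLC38A2 minus SLC38A4 from -0.055 to 0.20 and SLC38A7 minus SLC38A1 from -0.057 to 0.14 when 1 array was left out, each crossing 0. Those repeats were added after seeing the data, as were those for the context genes. SLC38A4 minus SLC38A5 passed without finishing replicate 3 or 6 (lowest exact permutation adjusted p = 0.0338), SLC38A2 minus SLC38A1 without finishing replicate 3 (0.04995) and SLC38A5 minus SLC38A1 without finishing replicate 5 (0.0497). A filter on dim probe sets above the median leaves out SLC38A1 and SLC38A5, which then have no value.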
